A study of Mus musculus with 4 samples.

Results

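The comparison set mouse MC3T3-E1 cells treated with D-PDMP at 10 µM against Control cells of the same line, genome wide, with 1 array on each side. Its members were the genes whose probe was well above background on both arrays by the scanner software. They numbered 14154 of the 22911 genes that could be named through the accession of a probe. A further 783 genes were measured only on the D-PDMP array, 239 only on the Control array and 7735 on neither. The series also holds 1 array of cells treated with D-PPMP at 1.0 µM and 1 of cells treated with Miglustat at 50 µM. In all 4 groups the cells were plated anew 4 days after the treatment began and were harvested 24 h later. MC3T3-E1 is an established line of preosteoblasts from mouse calvaria, and the labels name no genetic change and no vehicle for the Control cells. Each array measured bulk RNA, and each group has 1 array.

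D-PDMP is a ceramide analogue with a morpholino ring that inhibits glucosylceramide synthase, the enzyme that puts glucose on ceramide. This step opens the synthesis of most glycosphingolipids, which sit in the outer leaflet of the plasma membrane and take part in the clustering and signalling of growth factor receptors and integrins. Osteoblasts secrete the collagen-rich bone matrix, with small leucine-rich proteoglycans that bind collagen fibrils, and store insulin-like growth factors in it through binding proteins.

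The values are processed signals, which are spot intensities corrected for background, and log2 ratios of D-PDMP over Control after each array was scaled to its 75th percentile. That percentile was a signal of 189 on the D-PDMP array and of 183 on the Control array. Probes well above background made up 60.8% on the D-PDMP array and 57.4% on the Control array, and no spot was saturated. With 1 array a side there was no replicate, no test and no p-value, so a gene was called at a difference of at least 2-fold and a second count was made at 1.5-fold. The number of arrays limits the precision. Among 278 bright probes spotted 10 times on each array, the median SD of the log2 signal between spots was 0.03 on the D-PDMP array and 0.04 on the Control array, and among 10 dim ones it was 0.15 and 0.17. The median error that the scanner software itself assigns to a log2 ratio was 0.20. The spread between cultures is in none of these values. The 8 spiked-in control RNAs measured on both arrays differed by 0.03 to 0.18 on the log2 scale, all higher on the D-PDMP array. The brightest differed by 0.03 and the dimmest ones by 0.17 and 0.18. A still dimmer one, not among the 8, was 0.74 higher on the D-PDMP array. The share of its spots well above background was 0.53 there and 0.06 on the Control array. The part of this offset in the ratios and calls of dim genes was not tested. All arrays lay on 1 slide, D-PDMP at position 3 and Control at position 1, so position and treatment cannot be told apart.

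Most genes had nearly the same level in both cultures. The median log2 ratio was 0.00, the quartiles were -0.09 and 0.10, and 97.5% of the genes lay within 1.5-fold. At least 2-fold higher with D-PDMP were 22 genes (0.155%) and at least 2-fold lower were 24 (0.17%). At 1.5-fold these counts were 189 (1.34%) and 170 (1.2%). The calls lay mostly among dim genes. With the genes in 3 equal classes by level, the dimmest class held 18 of the 22 higher and 20 of the 24 lower ones. Its log2 ratios had an SD across genes of 0.31, against 0.15 in the middle class and 0.12 in the brightest. With a signal of at least 30 on the brighter array, 9 genes were called higher and 8 lower. At or above the median level of the brighter array, only Egr1, Egr2, Nr4a1 and Errfi1 were called higher and only Dcn lower. The split of the calls also moved with the scaling: quantile normalization gave 15 higher and 41 lower, and cyclic loess 14 higher and 38 lower.

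**Figure D1:**
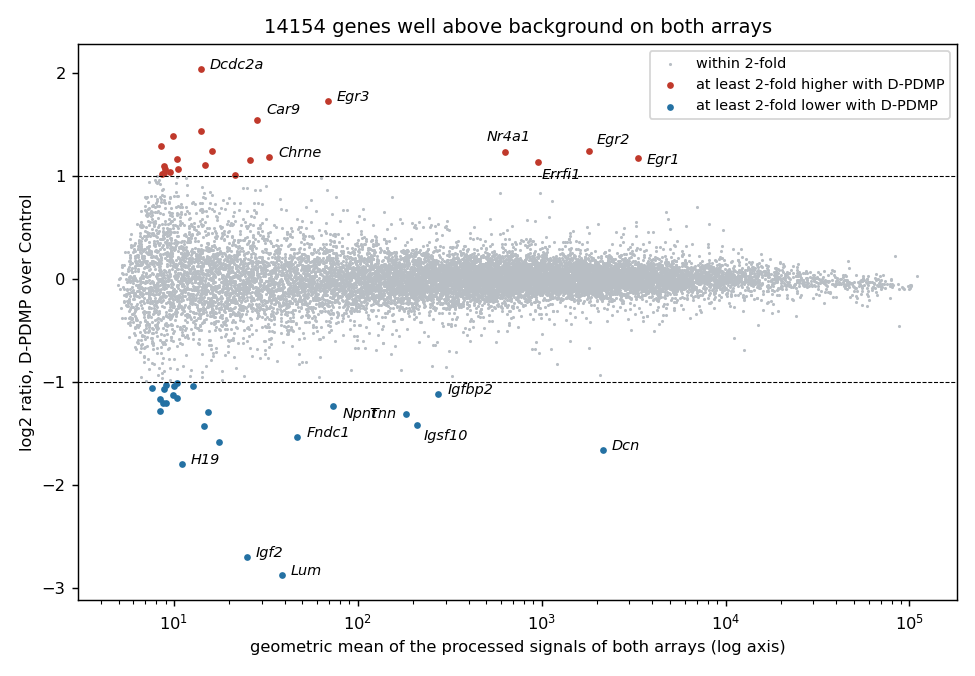
Each point is 1 gene well above background on both arrays, with the geometric mean of its processed signals on the horizontal log axis and its log2 ratio of D-PDMP over Control on the vertical axis. Dashed lines mark 2-fold; 22 genes lie above and 24 below them, most at the dim end, where the points spread widest.

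The largest differences downwards were in a secreted proteoglycan and a growth factor. Lum encodes lumican, a small leucine-rich proteoglycan of collagen fibrils, and had a signal of 14.6 in D-PDMP cells and 102.6 in Control cells, a log2 ratio of -2.87 with a software error of 0.23. Under normexp background correction its ratio came to -1.22. Dcn, the related proteoglycan decorin, had signals of 1233 in D-PDMP cells and 3750 in Control cells, at -1.66. Dcn was the only gene at or above the median level that was called lower. In bulk RNA, fewer cells expressing a gene and less RNA per cell cannot be told apart. Dcn and Lum are direct neighbours in the RefSeq gene order on mouse chromosome 10, with 0 annotated genes between them. The next proteoglycan genes on the Lum side, Kera and Epyc, were not well above background on either array.

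Igf2 encodes the insulin-like growth factor expressed from the paternal allele in most mouse tissues. Its signal was 9.9 in D-PDMP cells and 62.1 in Control cells, 6.47-fold lower with D-PDMP at a log2 ratio of -2.69 and a software error of 0.25. H19 encodes a long noncoding RNA of the same imprinted cluster that is expressed from the maternal allele. Its signal was 6.0 in D-PDMP cells and 20.2 in Control cells, at -1.79. Both genes, which are expressed from opposite alleles, were lower with D-PDMP. Both are dim probes with no other measured probe, and normexp background correction brought Igf2 to -0.93 and H19 to -0.38. The 2 annotated genes between them had no probe matched. The measured genes beyond H19 stayed near 0, at -0.09 for the noncoding Nctc1, -0.01 for Mrpl23, a mitochondrial ribosomal protein, and -0.09 for the muscle troponin Tnnt3. On the other side Igf2os, the antisense transcript, had a signal of 12.09 in D-PDMP cells and 9.43 in Control cells, at 0.31.

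The other imprinted genes did not share this direction as a group. Of 41 listed imprinted genes, 29 were measured on both arrays, of which 14 lay above and 15 below Control, with a median of 0.00, the same as over all genes. At 1.5-fold, 3 were lower (Igf2, H19 and Mest) and 0 higher, where 1.2% of all genes were lower and 1.34% higher. Mest encodes a hydrolase-like membrane protein expressed in mesoderm and had signals of 251 in D-PDMP cells and 393 in Control cells, at -0.70. Its other probe gave -0.80. Plagl1 encodes a zinc finger transcription factor and had signals of 643 in D-PDMP cells and 854 in Control cells, at -0.46. Its other probe lay at 0.05, so the probes of Plagl1 disagree.

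The RefSeq table of GRCm38.p6 lists 4 promoter windows for Igf2, each reaching from 250 bases before a transcript start to 50 after it. The window below is shown because Igf2 was the growth factor gene with the largest difference, and its capitals mark GGGCGG, the GC box bound by Sp factors. It holds 2 copies, the most of the 4 windows, and the others hold 0, 0 and 1. GGGCGG on either strand occurs in 35.7% of all 32851 windows and in a window of 63.9% of the genes measured on both arrays. The window lies at chr7:142657447-142657746 on the minus strand.
Igf2: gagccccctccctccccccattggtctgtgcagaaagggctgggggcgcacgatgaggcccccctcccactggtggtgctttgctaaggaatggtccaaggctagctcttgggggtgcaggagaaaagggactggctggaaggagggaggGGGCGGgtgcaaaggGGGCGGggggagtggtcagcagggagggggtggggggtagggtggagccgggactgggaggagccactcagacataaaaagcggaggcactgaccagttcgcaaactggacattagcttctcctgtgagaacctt

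Of the genes that handle insulin-like growth factors outside the cell, 3 are described here, chosen for their difference. Igfbp2 encodes a binding protein of these growth factors and had signals of 190 in D-PDMP cells and 395 in Control cells, at -1.11. Igfbp5, the binding protein that adheres to bone matrix, had signals of 230 in D-PDMP cells and 399 in Control cells, at -0.85. These genes are also direct neighbours, on mouse chromosome 1, with 0 annotated genes between them. The nearest measured genes outside the pair were Rpl37a, a ribosomal protein gene, at -0.07 and Tnp1, a sperm chromatin protein gene, at 0.05. Pappa2 encodes a metalloprotease that cuts Igfbp5 and so releases the growth factor. Its signal was 10123 in D-PDMP cells and 15764 in Control cells, at -0.69, and its other probe gave -0.71. The substrate and its protease were therefore lower together in this pair of arrays.

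**Figure D2:**
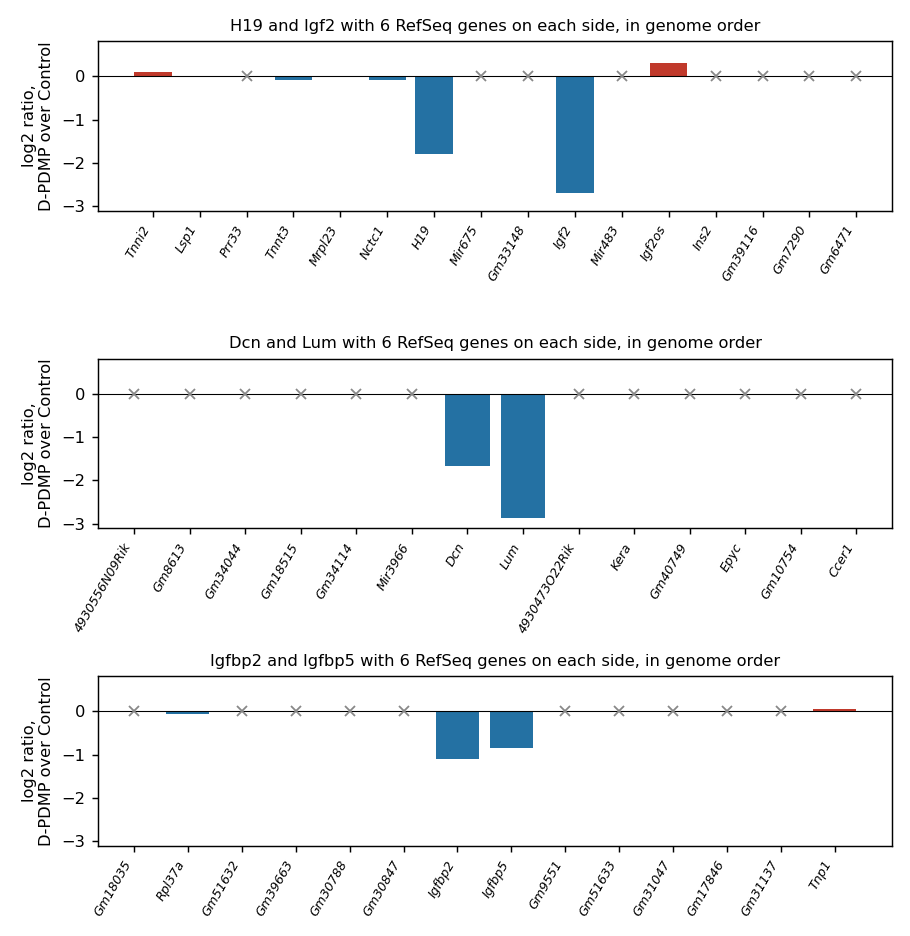
Bars give the log2 ratio of D-PDMP over Control for H19 and Igf2 (top), Dcn and Lum (middle), and Igfbp2 and Igfbp5 (bottom) with 6 RefSeq genes on each side in genome order. Grey crosses are genes with no probe or not well above background on both arrays. The named pairs reach between -0.85 and -2.87. The measured neighbours of the top and bottom pairs lie between -0.09 and 0.31, and no drawn neighbour of Dcn and Lum was measured.

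Pairs of adjacent genes that both moved were few. Among 14132 pairs of measured genes that follow each other in the RefSeq order of a chromosome, leaving out unmeasured genes, 16 had both members at least 1.5-fold from Control. Of these, 7 were lower together, 4 higher together and 5 opposite. Over all genes, 2.54% were at least 1.5-fold from Control in either direction. Whether the number of pairs differs from what this share would give was not tested. In only 2 pairs, Dcn with Lum and H19 with Igf2, were both members at least 2-fold lower, and 0 pairs had both at least 2-fold higher. Slpi and Matn4 were a further pair. Slpi, the secretory leukocyte protease inhibitor, had signals of 767 in D-PDMP cells and 1218 in Control cells, at -0.72. Matn4, the matrix protein matrilin-4, had signals of 40.2 in D-PDMP cells and 67.8 in Control cells, at -0.81. The other probe of Slpi lay at 0.03 and that of Matn4 at 0.07, so neither difference was seen on a further probe. The other lower pairs were St3gal6 with Ftdc2, Spata31d1a with Spata31d1b and Olfr907 with Olfr914, all dim. Copies within the Spata31d1, Olfr, Speer4 and Cd300ld families are close in sequence, and their probes may share signal.

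Npnt, Tnn, Fndc1 and Igsf10 were also called lower with signals of at least 30 in Control. Npnt encodes nephronectin, an integrin ligand of the osteoblast matrix, and had signals of 48.8 in D-PDMP cells and 110 in Control cells, at -1.23, which became -0.68 under normexp. Tnn, tenascin-N, had signals of 118 in D-PDMP cells and 282 in Control cells, at -1.31, and its other probe gave -0.95. Fndc1, a protein with fibronectin type III domains, had signals of 28.1 in D-PDMP cells and 78.2 in Control cells, at -1.53. Its other probe gave only -0.22. Igsf10, an immunoglobulin superfamily protein, had signals of 130 in D-PDMP cells and 335 in Control cells, at -1.42. Its other probe lay on the other side of 0, at 0.16.

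**Figure D3:**
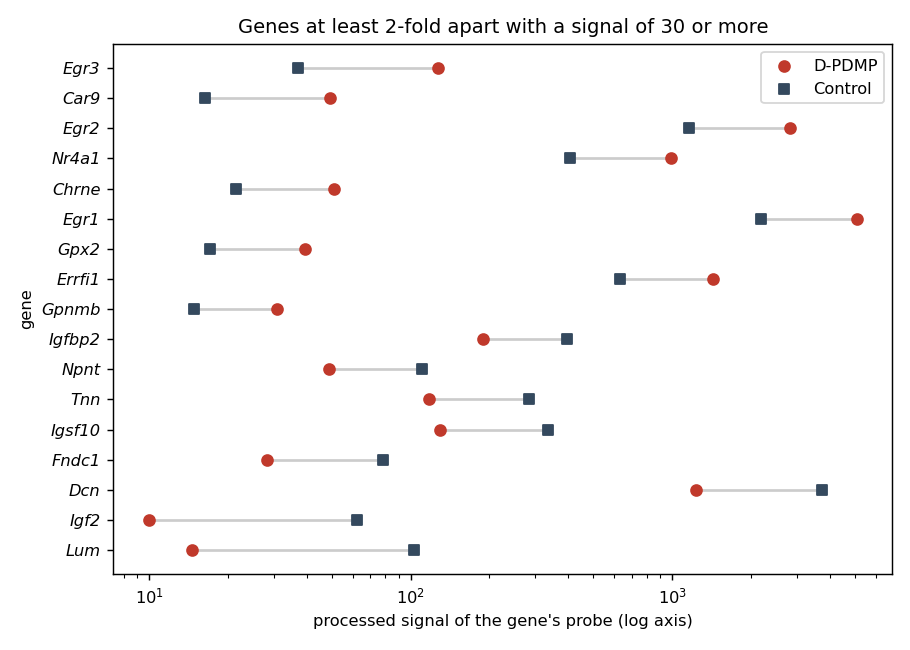
Processed signals (log axis) of the 17 genes at least 2-fold apart with a signal of 30 or more on the brighter array, D-PDMP as circles and Control as squares. The 9 genes at the top are higher with D-PDMP and the 8 at the bottom lower.

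The 30 genes lowest with D-PDMP at or above the median level include several matrix genes. Fbn2 encodes fibrillin-2, a microfibril protein, and had signals of 710 in D-PDMP cells and 1097 in Control cells, at -0.68. Its other probe gave -0.71. Col6a2 and Col6a1 encode chains of the same beaded-filament collagen. Col6a2 had signals of 907 in D-PDMP cells and 1396 in Control cells, at -0.68. Col6a1 had signals of 13115 in D-PDMP cells and 17252 in Control cells, at -0.45. Col5a3, a chain of fibrillar collagen V, had signals of 847 in D-PDMP cells and 1180 in Control cells, at -0.53, with its other probe at -0.75. Podn encodes podocan, a further small leucine-rich proteoglycan, and had signals of 332 in D-PDMP cells and 467 in Control cells, at -0.54. Sparc, osteonectin, the collagen-binding glycoprotein of bone, had signals of 76848 in D-PDMP cells and 101377 in Control cells, at -0.45. Its other probe gave -0.10, less than the software error.

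The same 30 genes include inhibitors of extracellular proteases. Timp3, the metalloproteinase inhibitor that binds to matrix, had signals of 9321 in D-PDMP cells and 13317 in Control cells, at -0.57, with its other probe at -0.48. Serpine2, an inhibitor of thrombin and urokinase also called protease nexin-1, had signals of 580 in D-PDMP cells and 762 in Control cells, at -0.45. Plau, the protease urokinase, stood on the other side. It had signals of 731 in D-PDMP cells and 517 in Control cells, at 0.45, and its other probe gave 0.30. The list of serpins and other protease inhibitors, with 39 members measured, had 16 above and 23 below Control and a median of -0.03.

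Among growth factors and their modulators, some single genes were lower. Ccn3, a matricellular modulator of growth factors, had signals of 1524 in D-PDMP cells and 2800 in Control cells, at -0.93. Sfrp2, a secreted Wnt modulator, had signals of 928 in D-PDMP cells and 1581 in Control cells, at -0.82. Bmp4, a bone morphogenetic protein, had signals of 744 in D-PDMP cells and 1145 in Control cells, at -0.68, and its other probe gave -0.59. Fgf18, a growth factor of the skeleton with a level below the median, had signals of 222 in D-PDMP cells and 327 in Control cells, at -0.61. Of 13 measured FGF ligands, receptors and klothos, Fgf18 included, 5 lay above and 8 below Control, with a median of -0.06. Fgf2 had signals of only 12.3 in D-PDMP cells and 7.8 in Control cells, at 0.61. Ntrk3, the receptor of neurotrophin-3, had signals of 338 in D-PDMP cells and 494 in Control cells, at -0.60. Its 3 other probes ranged between -0.80 and 0.37, so its probes disagree.

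Single genes of membrane transport and metabolism were lower. Slc6a9, the glycine transporter GlyT1, had signals of 1463 in D-PDMP cells and 2246 in Control cells, at -0.67. Cacna1g, the pore subunit of a T-type calcium channel with a level below the median, had signals of 208 in D-PDMP cells and 313 in Control cells, at -0.64, and its 2 other probes gave -0.58 and -0.50. All probes of Cacna1g therefore pointed the same way. Aldh1a3, which makes retinoic acid, had signals of 496 in D-PDMP cells and 676 in Control cells, at -0.50. Vldlr, a receptor for lipoproteins and reelin, had signals of 1272 in D-PDMP cells and 1656 in Control cells, at -0.43, with its other probe at -0.29. Rilp, the effector of Rab7 on late endosomes and lysosomes, had signals of 465 in D-PDMP cells and 682 in Control cells, at -0.61. For Tox4, Crybg3, Baiap2l2 and Pik3ip1, also among the 30 lowest at or above the median level, the other probe lay at 0 or above, between 0.01 and 0.25.

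The remaining lower calls had signals under 30 in Control. They include Plxnc1, the semaphorin 7A receptor, with 5.5 in D-PDMP cells and 12.8 in Control cells, at -1.28. Ptgfr, the prostaglandin F receptor, had 5.8 in D-PDMP cells and 12.4 in Control cells, at -1.16. Itga9, an integrin alpha chain, had 7.1 in D-PDMP cells and 15.2 in Control cells, at -1.15. The others with official symbols were Zfp185, Olfr907, Pjvk, Pik3c2g, Kash5, Krt8, Serpina9, Sprr1a, Kcnj2, St3gal6 and Rslcan18, between -1.42 and -1.01. None of these dim genes had another probe measured on both arrays, so each value stands on 1 spot per array. At the edge of the call stood Rslcan18, at -1.01, just inside it, and Fbxw20, an F-box protein gene at -0.99, just outside.

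On the higher side, the 4 genes called at or above the median level encode immediate early transcription factors and a feedback regulator. Egr2 had signals of 2833 in D-PDMP cells and 1157 in Control cells, at 1.24. Egr1 had signals of 5095 in D-PDMP cells and 2181 in Control cells, at 1.17. Both encode zinc finger factors that are transcribed within minutes of growth factor stimulation. Egr3, of the same family, had signals of 127 in D-PDMP cells and 37.1 in Control cells, at 1.72, and its other probe gave 2.15. Nr4a1, an orphan nuclear receptor with the same fast kinetics, had signals of 989 in D-PDMP cells and 405 in Control cells, at 1.23. Errfi1, a feedback inhibitor that binds the EGF receptor, had signals of 1431 in D-PDMP cells and 630 in Control cells, at 1.13. Under normexp background correction, Egr1, Egr2, Nr4a1 and Errfi1 were still at least 2-fold higher, whereas Egr3 came to 0.88.

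Promoter windows of 3 of these genes are shown because the genes were called higher together at or above the median level. Each window was picked because it holds the marked motif. Egr2 has 5 windows, and the one at chr10:67535249-67535548 holds 0 CArG boxes. Errfi1 has 2 windows, and the one not shown holds 0 copies of TGACGTCA. The window of Ptgs2, a gene described below, was also searched for TGACGTCA and holds 0 copies. For Egr2, at chr10:67537619-67537918 on the plus strand, the capitals mark a CArG box, the binding sequence of serum response factor, with its first base at -72 from the start. For Nr4a1, at chr15:101266596-101266895 on the plus strand, they mark 4 copies of TGCGTCA, a relative of the cyclic AMP response element. For Errfi1, at chr4:150854820-150855119 on the plus strand, they mark TGACGTCA, the full cyclic AMP response element, with its first base at -51.
Egr2: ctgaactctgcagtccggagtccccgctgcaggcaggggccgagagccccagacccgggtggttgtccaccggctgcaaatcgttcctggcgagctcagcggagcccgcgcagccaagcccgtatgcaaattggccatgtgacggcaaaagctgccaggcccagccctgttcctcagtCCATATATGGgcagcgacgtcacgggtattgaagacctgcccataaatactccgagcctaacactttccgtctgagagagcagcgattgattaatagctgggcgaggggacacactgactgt
Nr4a1: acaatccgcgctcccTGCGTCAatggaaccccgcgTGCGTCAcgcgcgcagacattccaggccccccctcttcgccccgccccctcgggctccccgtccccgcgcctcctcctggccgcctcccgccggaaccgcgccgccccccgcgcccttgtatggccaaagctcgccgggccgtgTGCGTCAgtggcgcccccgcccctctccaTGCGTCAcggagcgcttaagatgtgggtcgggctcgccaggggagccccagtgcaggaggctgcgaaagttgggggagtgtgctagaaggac
Errfi1: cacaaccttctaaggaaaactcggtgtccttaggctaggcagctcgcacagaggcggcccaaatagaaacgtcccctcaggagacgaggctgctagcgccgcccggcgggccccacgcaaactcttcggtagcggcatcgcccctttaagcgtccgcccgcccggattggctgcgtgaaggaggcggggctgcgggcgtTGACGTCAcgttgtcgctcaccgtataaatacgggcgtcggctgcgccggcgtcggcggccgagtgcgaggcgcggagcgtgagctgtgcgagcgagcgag
Searched on both strands, the CArG box was in 1.63% of all 32851 windows, TGCGTCA in 2.12% and TGACGTCA in 1.79%. TGCGTCA was chosen after the window of Nr4a1 had been read. None of these motifs contains another of them. Counted by gene over the 11230 genes measured on both arrays that had a window, the shares were 1.73% for the CArG box, 3.88% for TGCGTCA and 3.38% for TGACGTCA. Of the 17 genes called higher that had a window, 1 held a CArG box, 1 held TGCGTCA and 1 held TGACGTCA. Of the 18 genes called lower, 1 held a CArG box, 1 held TGCGTCA and 0 held TGACGTCA. A match describes the letters of the window and not a bound site.

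Below the 2-fold limit, the genes next in size at or above the median level were Dusp1, Ptgs2, Fos, Aqp1 and Sgk1. Dusp1, a phosphatase that inactivates MAP kinases, had signals of 1335 in D-PDMP cells and 721 in Control cells, at 0.84. Ptgs2, the inducible cyclooxygenase of prostaglandin synthesis, had signals of 811 in D-PDMP cells and 439 in Control cells, at 0.83. Fos, an AP-1 subunit and immediate early gene, had signals of 1514 in D-PDMP cells and 862 in Control cells, at 0.76. Sgk1 encodes a serum- and glucocorticoid-regulated kinase and had signals of 6077 in D-PDMP cells and 3737 in Control cells, at 0.65. Hbegf and the genes after it were selected by function and not by size. The 30 highest at or above the median level also hold Snx10 at 0.58, Oacyl at 0.57 and Adnp at 0.55. The other probe of Snx10 gave 0.06. Hbegf, a ligand of the EGF receptor, had signals of 834 in D-PDMP cells and 564 in Control cells, at 0.51. Epha2, a receptor tyrosine kinase for ephrins, had signals of 3019 in D-PDMP cells and 2125 in Control cells, at 0.45. Gab3, an adaptor of receptor tyrosine kinases, had signals of 2475 in D-PDMP cells and 1651 in Control cells, at 0.53. Junb, another AP-1 subunit, had signals of 9994 in D-PDMP cells and 6649 in Control cells, at 0.53, with its other probe at 0.38. Zfp36l2, which promotes the decay of AU-rich mRNAs, had signals of 11703 in D-PDMP cells and 8092 in Control cells, at 0.48. Phlda1, a growth-factor-inducible pleckstrin homology protein, had signals of 5966 in D-PDMP cells and 4124 in Control cells, at 0.48. Outside the 30 highest at such levels, Myc, the growth-promoting transcription factor, had signals of 1648 in D-PDMP cells and 1217 in Control cells, at 0.38, with its other probe at 0.26. All of these differences are below the 2-fold limit.

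Aqp1 encodes the water channel aquaporin-1. Its signals were 9087 in D-PDMP cells and 5392 in Control cells, at 0.70. Odc1, the first enzyme of polyamine synthesis, had signals of 6073 in D-PDMP cells and 3905 in Control cells, at 0.58, but its other probe gave 0.17. Smad7, the inhibitory Smad of TGF-beta signalling, had signals of 1135 in D-PDMP cells and 740 in Control cells, at 0.56, with its other probe at 0.20. Acvr1, a type I receptor for bone morphogenetic proteins, had signals of 3989 in D-PDMP cells and 2686 in Control cells, at 0.52. Its other probe gave -0.03, so this difference was not seen on a further probe. The same held for Slc8a3, a sodium-calcium exchanger, at 0.60 with its other probe at -0.24, and for Grhpr, glyoxylate reductase, at 0.51 with its other probe at -0.19. Ankrd1, an ankyrin repeat protein and target of the Hippo effector YAP, had signals of 7432 in D-PDMP cells and 5009 in Control cells, at 0.52. Of 28 measured genes of the Hippo pathway and YAP targets, 19 lay above and 9 below Control, with a median of 0.05.

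The dim genes called higher had varied functions. Dcdc2a, a doublecortin domain protein of microtubules and cilia, stood highest of all genes, with signals of 28.8 in D-PDMP cells and 6.8 in Control cells, at 2.03. Rgs16, a regulator of G protein signalling, had 23.6 in D-PDMP cells and 8.4 in Control cells, at 1.43. Chrne, a subunit of the muscle acetylcholine receptor, had 50.7 in D-PDMP cells and 21.5 in Control cells, at 1.18. Gpx2, a glutathione peroxidase, had 39.4 in D-PDMP cells and 17.0 in Control cells, at 1.16. Car9, a carbonic anhydrase, had 49.3 in D-PDMP cells and 16.3 in Control cells, at 1.55, whereas its other probe gave -0.24. Under normexp background correction Dcdc2a came to 0.25, Chrne to 0.42, Gpx2 to 0.43 and Car9 to 0.43. The rest with official symbols were Treml2, Glyat, Fez1, Smc2os, Atp6v1e2, Mrgprb4, Naif1, Rln3, Rhbdl2 and Gpnmb, between 1.38 and 1.01. Below the 2-fold limit, Tnfrsf9, a costimulatory receptor of the TNF receptor family, had signals of 34.4 in D-PDMP cells and 18.02 in Control cells, at 0.88. Its other probe gave 0.78. Notch1, a receptor of cell fate decisions, had 76.2 in D-PDMP cells and 46.4 in Control cells, at 0.66.

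Apart from the probes spotted 10 times, further probes gave the only repeat measurement of a gene on these arrays. Of the 46 genes called at 2-fold, only 5 had another measured probe, and it had the same sign for Egr3, Tnn and Fndc1 but not for Car9 and Igsf10. Of the 359 genes at 1.5-fold (2.54%), 43 had other measured probes, and for 25 all of these had the same sign. Probes of a gene can read different transcripts, and the part of this in the disagreements was not tested.

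**Figure D4:**
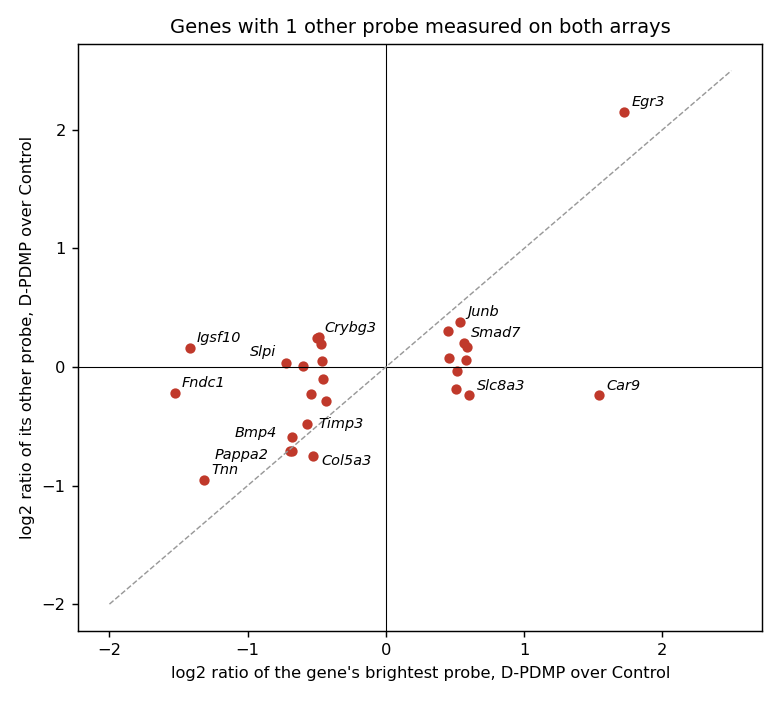
Each point is a gene called at 2-fold, or among the 30 highest or 30 lowest at or above the median level, that had 1 other measured probe. The horizontal axis is the log2 ratio of D-PDMP over Control on its brightest probe and the vertical axis that of the other probe; for 17 of 28 genes both have the same sign, and the dashed line marks equal ratios.

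Across 59 lists of genes by function, no list had a median as far as 0.20 from 0. The factors that bind GC-rich promoters stood highest. Of 19 measured Kruppel-like and Sp factors, 16 lay above and 3 below Control, with a median of 0.12 against 0.00 over all genes. None of them reached 1.5-fold. Sp3, a ubiquitous member of the family, had signals of 776 in D-PDMP cells and 538 in Control cells, at 0.48. Klf11, a TGF-beta-inducible member, had only 9.3 in D-PDMP cells and 6.8 in Control cells, at 0.41. The circadian clock list had 14 of 20 measured members above Control and a median of 0.08. Its most distant member pointed the other way: Bhlhe41, a repressor of the clock, had 8.5 in D-PDMP cells and 14.8 in Control cells, at -0.85, with its other probe at 0.35.

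Lists of RNA and protein turnover and of nucleotide synthesis had more members above than below Control. Of 109 measured spliceosome and SR protein genes, 80 lay above and 29 below Control, with a median of 0.05. Hnrnpr, an RNA-binding protein of pre-mRNA, had signals of 3541 in D-PDMP cells and 2695 in Control cells, at 0.34, although its 4 other probes ranged between -0.10 and 0.45. Of 45 proteasome subunits, 32 lay above Control and 13 below, with a median of 0.03. Psmd1, a scaffold subunit of the regulatory particle, had signals of 13384 in D-PDMP cells and 11138 in Control cells, at 0.21, with its 2 other probes at 0.10 and 0.16. The list of serine, one-carbon and nucleotide synthesis had 29 members above and 12 below Control, with a median of 0.04. Dck, deoxycytidine kinase, had signals of 985 in D-PDMP cells and 736 in Control cells, at 0.37, and Gmps, which makes GMP, was at 0.33. Ribosome biogenesis had 33 above and 19 below, with a median of 0.02 that turned to -0.0009 at its lowest among the alternatives.

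Aminoacyl-tRNA synthetases, which charge tRNAs with amino acids, leaned the other way. Of 33 measured, 10 lay above and 23 below Control, with a median of -0.03. Sars, the seryl-tRNA synthetase of the cytosol, was lowest, with signals of 6680 in D-PDMP cells and 8065 in Control cells, at -0.32. Yars2, the tyrosyl-tRNA synthetase of mitochondria, was highest at 0.44, with its other probe at 0.06. Histone genes had 14 members above and 42 below Control of 56 measured, with a median of -0.11 and none at 1.5-fold. Many histone genes are near-identical copies whose probes may share signal. In the list of caveolae and lipid raft proteins, 6 lay above and 11 below Control, with a median of -0.08. Flot1, the raft protein flotillin-1, had signals of 1313 in D-PDMP cells and 1530 in Control cells, at -0.27, and its other probe gave -0.25.

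**Figure D5:**
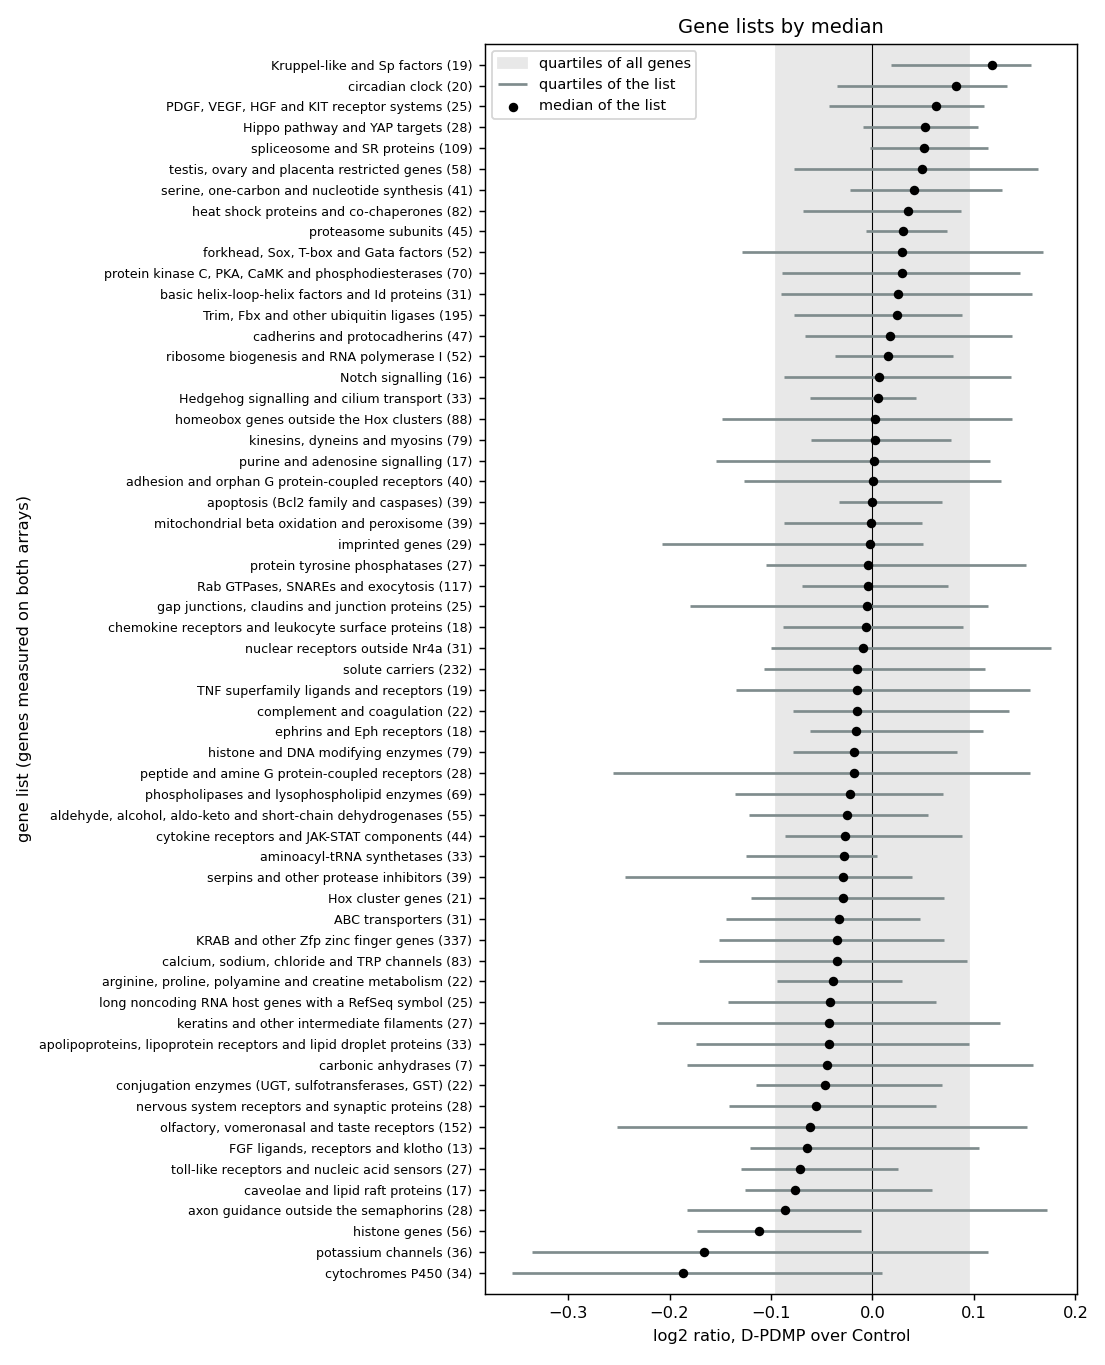
Points are the median log2 ratio of D-PDMP over Control of each of 59 gene lists and lines their lower and upper quartiles, with the number of members measured on both arrays in brackets. The grey band spans the quartiles of all genes; the medians run between -0.19 for cytochromes P450 and 0.12 for Kruppel-like and Sp factors.

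The medians of cytochromes P450 and potassium channels were the lowest, and few of their members reached the median level. Of 91 cytochromes P450 with a probe, 34 were measured, of which 10 lay above and 24 below Control, with a median of -0.19. At 1.5-fold, 4 were lower and 0 higher, where 3.01% of all genes in the dimmest class were lower and 3.73% higher. Cyp1a1, a target of the aryl hydrocarbon receptor, had signals of 5.9 in D-PDMP cells and 10.1 in Control cells, at -0.82. Cyp2c23, an arachidonic acid epoxygenase, had 12.9 in D-PDMP cells and 19.4 in Control cells, at -0.64. Only 5 of the 34 had a level at or above the median. Of 36 measured potassium channel genes, 14 lay above and 22 below Control, with a median of -0.17. Only 1 of them had a level at or above the median, and it lay at 0.00, just above Control. Kcnj2, an inward rectifier, had 9.0 in D-PDMP cells and 17.9 in Control cells, at -1.04. Kcnk10, a background channel, stood opposite, with 44.2 in D-PDMP cells and 22.8 in Control cells, at 0.90. Only 152 of 1390 olfactory, vomeronasal and taste receptor genes with a probe were measured on both arrays, with a median of -0.06.

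Lists of cell death and of broad signalling lay near the middle. The apoptosis list of Bcl2 family members and caspases had 19 members above and 20 below Control and a median of 0.00, and none at 1.5-fold. Solute carriers had 105 above and 127 below, with a median of -0.02. The cytokine receptors and JAK-STAT components had 20 above and 24 below, with a median of -0.03. Mitochondrial beta oxidation and peroxisome genes had 19 above and 20 below, with a median of 0.00. In that list Phyh, the peroxisomal phytanoyl-CoA hydroxylase, had signals of 332 in D-PDMP cells and 443 in Control cells, at -0.47, with its other probe at -0.29.

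Genes measured on only 1 array have a bound and no ratio. For the bound, the array without a measurement was given its lowest level counted as well above background, or the probe's own level where that was higher. Of the 783 genes measured only in D-PDMP cells, 47 had a bound of at least 2-fold, and of the 239 measured only in Control cells, 23. Slc2a3, a neuronal-type glucose transporter, had a signal of 23.5 in D-PDMP cells and was not well above background in Control cells, at least 4.68-fold higher. Klf12, a repressor of the Kruppel-like family, had 29.3 in D-PDMP cells and was at least 5.84-fold higher, and Ptf1a, a pancreatic and neural transcription factor, had 29.8 and was at least 5.95-fold higher. Slc2a3 has 2 probes and Klf12 has 3, and each bound rests on the brightest of them alone. The highest bound was that of the olfactory receptor Olfr1277, at least 8.31-fold, with a signal of 41.7 in D-PDMP cells. On the other side Slco1a4, an organic anion transporter, had a signal of 30.7 in Control cells and was at least 6.83-fold lower with D-PDMP, and Pf4, a platelet chemokine, had 17.8 in Control cells and was at least 3.97-fold lower. More genes being measured only with D-PDMP goes beside the larger share of all probes well above background on that array, and its part in the bounds was not tested.

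The same Control array also serves the other 2 inhibitors, so values side by side share its error. The doses differ as well, so the values are listed without a test. Lum was at -2.87 with D-PDMP, -2.20 with D-PPMP and 0.10 with Miglustat. Igf2 was at -2.69 with D-PDMP, -1.58 with D-PPMP and -0.31 with Miglustat, and H19 at -1.79, -1.29 and -0.24 in the same order. Mest was at -0.70 with D-PDMP, -0.81 with D-PPMP and 0.44 with Miglustat. Pappa2 was at -0.69 with D-PDMP, -0.74 with D-PPMP and 0.44 with Miglustat. Aqp1 was at 0.70 with D-PDMP, 0.83 with D-PPMP and -0.41 with Miglustat. Dcdc2a was at 2.03 with D-PDMP, 0.56 with D-PPMP and 0.33 with Miglustat, Gpx2 at 1.16, 0.15 and -0.14, and Car9 at 1.55, 0.17 and -0.15 in that order. These genes are a selection. The genes called at or above the median level had the same sign with each inhibitor. All called genes were picked for their distance from the Control array, which every ratio shares, so the same sign is no independent repeat. In the same order, Nr4a1 was at 1.23, 1.20 and 1.23, Egr1 at 1.17, 0.96 and 0.72, and Egr2 at 1.24, 1.32 and 0.75. Errfi1 was at 1.13, 1.32 and 0.37, and Dcn at -1.66, -1.33 and -0.38. Among the other calls, Igsf10 was at -1.42, -1.54 and -1.42, and Egr3 at 1.72, 2.34 and 1.14.

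The label of the cells was set against marker genes. Of 18 osteoblast markers, 14 were measured on both arrays, among them Col1a1, Col1a2, Sparc, Spp1 and Runx2. Alpl, Ibsp and Dmp1 were on neither. Bglap, an osteocalcin gene, was measured in D-PDMP cells alone, with low signals on both arrays. The related Bglap2 was measured on both arrays, as were Mepe and Phex, all with low signals. The median log2 ratio of the 14 was -0.02. Of 9 endothelial markers only Pecam1 was measured, with signals of 21.6 in D-PDMP cells and 13.7 in Control cells, at 0.60. Of 12 macrophage and osteoclast markers 6 were measured on both arrays, with a median of -0.12, and Acp5 and Dcstamp on the Control array alone. Among them Itgam, an integrin of myeloid cells, had signals of 4202 in D-PDMP cells and 4380 in Control cells, while the leukocyte marker Ptprc was on neither array. Of 11 skeletal muscle markers 4 were measured on both, with Acta1 at 3297 in D-PDMP cells and 3332 in Control cells, and Myod1 and Myog on neither. Of 10 neuron and glia markers 7 were measured on both, with Snap25 at 2900 in D-PDMP cells and 3176 in Control cells, and Rbfox3 and Gfap on neither. Of 8 epithelial markers 5 were measured on both, with Krt14 at 2049 in D-PDMP cells and 1839 in Control cells, and Epcam on neither. Of 10 adipocyte markers 4 were measured on both, namely Lep, Cebpa, Fabp4 and Pparg, and Adipoq and Plin1 on neither. Of 11 chondrocyte markers 5 were measured on both, namely Col2a1, Sox9, Comp, Col11a2 and Matn3, and Col9a1 on the Control array alone. Col2a1 had signals of 10333 in D-PDMP cells and 12054 in Control cells, at -0.28. Sox9 had 383 in D-PDMP cells and 358 in Control cells. Acan, the cartilage proteoglycan aggrecan, was on neither array. Ugcg, the gene of the inhibited enzyme, had signals of 545 in D-PDMP cells and 498 in Control cells, at 0.08, and its 2 other probes gave -0.05 and 0.08. The reference genes Actb, Gapdh, Ppia, B2m, Tbp, Ywhaz, Sdha and Hprt lay between -0.11 and 0.09.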

How the data were processed

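RNA of MC3T3-E1 cells was labelled with Cy3 by a one-colour low input protocol and hybridised, per the labels' protocols. Spot intensities were deposited as written by the scanner software, Agilent Feature Extraction 12.1.1.1, per the file headers; its processed signal is corrected for background within the array. The deposited table of log2 values holds the processed signal minus each array's 75th percentile, as a comparison with the scanner files showed, with column medians of -4.0 (D-PDMP) and -4.1 (Control). Here control spots and outlier spots (66 and 70) were left out, log2 signals averaged per probe, and each array's 75th percentile over 56605 probes subtracted. Of these probes 32994 (58.3%) matched a RefSeq or Ensembl transcript accession in the RefSeq table of GRCm38.p6, used for names and gene order, since the array design names another build. A gene takes its probe with the highest mean level over the 4 arrays and is measured when at least 50% of that probe's kept spots are well above background. The 59 function lists and 8 marker lists, the members and the alternatives were chosen with earlier results of these data known. Named are all called genes with official-type symbols, the 30 highest and 30 lowest at or above the median level, 2 to 6 members of each list, the 10 highest bounds per direction, neighbouring pairs at 1.5-fold, and reference genes; of these 238 genes the text gives some. Genes flanking the pairs, and further markers, were added after values were seen. Another gene and another list are not reported here. The call rule was tested on simulated data with independent noise per gene and no spread between cultures. This checks the calculation and not the calls made here. Used were R 4.3.3, limma 3.58.1, Python 3.11.15, pandas 2.3.3 and numpy 2.4.6.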

Additional observations from a re-analysis of the deposited data

Results flagged for a closer look

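Probes that could not be matched to a named gene stand outside the comparison above. Of 10952 such probes well above background on both arrays, 56 (0.51%) had a level in D-PDMP cells 2-fold or more above Control and 13 (0.12%) one 2-fold or more below it, against 29 (0.14%) and 27 (0.13%) of the 20957 named probes. The 56 had a median signal of 15.2 on the D-PDMP array and 6.5 on the Control array. Among unnamed probes for genomic regions 12 of 2247 were higher and 1 lower, and among those for Ensembl transcripts 16 of 3766 were higher and 7 lower. The part of the larger share of probes well above background on the D-PDMP array in these counts was not tested.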

How the results depend on the processing

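No paired analysis was possible because each group has 1 array. The mean spot signal intended for 2 settings was not in the columns used; the median spot signal and the background-subtracted signal took its place, chosen with the files in view, as was the limit of 30 on the signal. The 2-fold counts of 22 higher and 24 lower with D-PDMP moved to 14 higher under cyclic loess (38 lower), to 41 lower under quantile normalization (15 higher), and to 4 and 2 under normexp with an offset of 50, which draws dim ratios towards 0. They were 4 and 1 at or above the median level, 9 and 8 with a signal of 30 or more, and 1250 and 506 with no filter on background. At 1.5-fold, 189 higher and 170 lower became 123 and 277 under quantile normalization, 120 higher under cyclic loess, 10 and 23 under normexp, 10 and 13 at or above the median level, 47 and 64 with a signal of 30 or more, and 2337 and 1181 with no filter. Under the other 6 scalings, probe rules and signals all counts stayed within 1.5 times. All 24 lower calls were also called under quantile normalization and cyclic loess, and of the 22 higher calls 15 and 14 were. Of 143 named genes at least 1.5-fold from Control, 142 kept their sign under each alternative that gave them a value. That was 10 to 12 of 12 alternatives, since filters on level drop dim genes. Pld6 came to -0.0231 under normexp. The alternatives rescale or filter the same arrays on which these genes were chosen for their distance. A kept sign was therefore nearly fixed in advance and is no support for a call. The cause of the moves in counts and signs was not tested. Of 59 function lists 33 kept the sign of their median, among them histone genes (-0.13 to -0.08), cytochromes P450 (-0.29 to -0.07), spliceosome genes (0.03 to 0.05) and Kruppel-like and Sp factors (0.04 to 0.12). Dim signals limit most calls, and with 1 array a side no call has a replicate.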
